A study of Drosophila melanogaster with 4 samples.

Results

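The genes described here are 10 genes of the germ plasm and of the piRNA pathway, taken by name from the 17518 genes of the deposited table: vas, nos, pgc, gcl, aub, piwi, AGO3, tej, zpg and ovo. They were read in polyA RNA of sorted GFP-positive cells from Drosophila melanogaster embryos at stage 11 (eggs laid over 3 h and aged for 7 h at 25 C), in a series that asks which genes depend on Salm, a transcription factor with zinc fingers, as muscle forms. One line is labelled WT and the other carries salm[340], a mutant allele of spalt major; homozygous embryos were picked by hand by their GFP. The submitters call the 2 libraries of each line technical replicates: n is a number of libraries, and p-values measure only the spread between them. The transgene that gives the GFP, the cells it marks beyond the label embryonic myoblast, and any control chromosome are not given in the sources used here.

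Germ plasm is the maternal cytoplasm at the posterior pole of the egg that makes the first cells formed there into germ cells. These pole cells are transcriptionally quiet at first, and later cross the gut wall and associate with the mesoderm on their way to the gonad. The piRNA pathway is the small RNA system of the fly germline: Argonaute proteins of the PIWI clade carry piRNAs that guide them to transposon transcripts in the cytoplasm and to transposon loci in the nucleus. Some of these RNAs are also deposited by the mother and persist in the early embryo, and several of the genes have a second, somatic use.

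The libraries differed in depth and make-up along with genotype. Counts in nuclear genes came to 16444569 and 14519441 in the WT libraries against 5931283 and 5772320 in those of salm[340], while the mitochondrial share was 24.8% and 29.3% in the WT libraries against 60.9% and 63.2% in those of salm[340]. Levels are given in CPM, counts scaled to a library total of 1000000, with the totals adjusted by the trimmed mean of M values (TMM), and differences are log2 fold changes of salm[340] minus WT from edgeR. A difference is thus relative to the bulk of genes, and in a sorted population fewer cells of a type and less RNA per cell cannot be told apart. The label was checked on myoblast markers: Mef2, the general muscle factor, stood at 253.8 and 261.9 CPM in the WT libraries against 262.0 and 290.4 CPM in those of salm[340], and all 10 markers of the myoblast list were tested, 5 of them higher in salm[340] and 2 lower. The summed level of these 10 was 2853 and 2875 CPM in the WT libraries against 3661 and 3840 CPM in those of salm[340]. Most of that rise came from Mhc (324.0 and 320.9 to 787.1 and 786.3 CPM) and Act57B (1546 and 1549 to 1808 and 1916 CPM). Of the 10, 6 had a positive log2 fold change. Markers of other cells were detected as well. The 10 neural markers summed to 202.4 and 211.5 CPM in the WT libraries against 198.1 and 217.8 CPM in those of salm[340], with 1 higher and 2 lower. The 9 epidermis markers, given with ovo below, had a higher sum in both salm[340] libraries. The hemocyte and the gut and endoderm sums were lower in both. The 10 hemocyte markers summed to 222.8 and 227.3 CPM against 173.3 and 195.7 CPM (2 higher, 3 lower). The 8 gut and endoderm markers summed to 113.3 and 116.4 CPM against 81.4 and 94.6 CPM (1 higher, 1 lower). Among the hemocyte markers, drpr (64.5 and 59.4 to 39.7 and 39.6 CPM), Pxn and Col4a1 passed as lower, and PPO1 and PPO2 passed as higher. The gene srp, in both lists, was at 36.2 and 40.2 CPM against 21.8 and 32.1 CPM and did not pass (edgeR adjusted p = 0.0625). In the gut list Cad87A was at 51.9 and 51.0 CPM against 32.9 and 27.1 CPM. Cad87A and srp carried the fall of the gut sum, and 5 of the 8 had a positive log2 fold change (median 0.21). Of the myoblast markers 70% passed, of the epidermis 44.4%, neural 30%, hemocyte 50% and gut and endoderm markers 25%, against 17.2% of all genes tested. The part of the cells other than myoblasts in the results was not tested.

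Of the 10 germ plasm and piRNA genes, 8 had enough counts to be tested, and 1 of them, vas, passed at an edgeR adjusted p under 0.05. Among all 10738 genes tested, 17.2% passed, 1078 genes higher and 769 lower in salm[340], so 1 of 8 is near the background. The median log2 fold change of the 8 was -0.10, against -0.01 for all genes tested. Together the 10 genes made up 64.1 and 63.5 CPM in the WT libraries against 75.1 and 62.8 CPM in those of salm[340]. Between 62.4% and 71.3% of that sum came from gcl and ovo in each library.

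Per kb of exon, the 10 genes differed widely within WT. These levels can include fragments of other genes, because strand was not used and a fragment was counted for each gene it touched. Bases shared with another gene made up 46.9% of the exon length of pgc (with T3dh) and 24.6% of vas (with solo). For nos the share was 11.5% (with CG11779) and for piwi 6.2% (with SCAR). The part of such fragments in the order was not tested. The germ cell determinant gcl led at 11.3 ± 0.159 CPM per kb (SD, n = 2) in WT, more than 83.7% of all listed genes. It was followed by pgc (2.56 ± 0.175 CPM per kb), aub (2.21 ± 0.644), ovo (2.09 ± 0.0509), piwi (1.56 ± 0.115), vas (0.992 ± 0.381), nos (0.893 ± 0.0857), zpg (0.389 ± 0.0895), AGO3 (0.122 ± 0.0107) and tej (0.0673 ± 0.0737; SD, n = 2 each). In this order the WT libraries of pgc and aub overlapped, as did those of aub and ovo, vas and nos, and AGO3 and tej. The other neighbours did not overlap. In salm[340] gcl led again at 9.93 ± 0.267 CPM per kb (SD, n = 2), then came ovo, vas, pgc, aub, piwi and nos between 2.82 and 1.36 CPM per kb, each overlapping the next. The 3 lowest there were zpg, tej and AGO3, at 0.35, 0.252 and 0.0769 CPM per kb. The salm[340] libraries of zpg and tej overlapped, as did those of tej and AGO3.

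**Figure D1:**
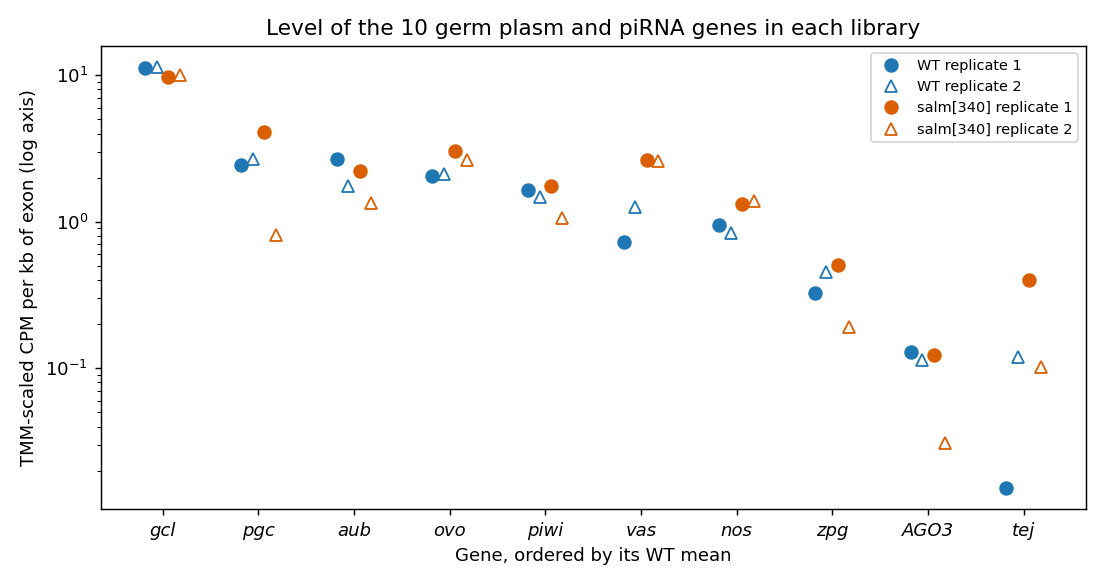
TMM-scaled CPM per kb of exon (log axis) of the 10 genes in each of the 4 libraries, ordered by the WT mean. Circles are replicate 1 and triangles replicate 2 of each line. The salm[340] points of vas lie above both WT points, those of gcl lie just below them, and pgc splits between its salm[340] libraries.

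The pole cell factors gave the one gene that passed. The gene vas (FBgn0283442, BDGP6 2L:15061656-15074311, plus strand) encodes Vasa, a DEAD-box RNA helicase of the germ plasm and a standard marker of germ cells. Its counts were 56 and 87 in the WT libraries against 62 and 60 in those of salm[340], which scale to 1.65 and 2.88 CPM in the WT libraries against 6.06 and 5.90 CPM in those of salm[340]. Both salm[340] libraries lay above both WT libraries, as in 28.4% of all genes tested. The log2 fold change was 1.40 (95% interval 0.58 to 2.22, edgeR adjusted p = 0.0276, n = 2 libraries a line). Scaled by library size alone, where the median gene moved by -1.20, vas was at 0.22 and did not pass (edgeR adjusted p = 0.602). It did not pass without WT replicate 1 (1.04, edgeR adjusted p = 0.439) or without WT replicate 2 (1.85, edgeR adjusted p = 0.296), fits in which 14 genes in all passed.

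The exon map of vas bears on that value. The gene solo, which encodes a protein of meiotic chromosome cohesion, starts with the same 3 exons as vas, 563 bases that make up 24.6% of the exon length of vas, and a fragment there was counted for both genes. The counts of solo were 6 and 10 in the WT libraries against 28 and 5 in those of salm[340], too few for it to be tested. Taking all solo counts off those of vas, the most that solo alone could have added, left 50 and 77 counts in the WT libraries against 34 and 55 in those of salm[340], or 1.47 and 2.55 CPM against 3.32 and 5.41 CPM. The salm[340] libraries still lay above the WT ones, and the log2 fold change was 1.12 but no longer passed (edgeR adjusted p = 0.108, a fit chosen after seeing the data). The vas exons at 6726 to 6773 and 6827 to 7214 bases from its start lie in an intron of vig, a gene on the opposite strand. Strand was not used in counting, and the part of vig RNA in the vas counts was not tested. The gene vig encodes an RNA-binding protein found with the RNA interference machinery. It lies within the bounds of vas and shares 0 exon bases with vas. It was abundant, at 296.1 and 320.5 CPM in the WT libraries against 356.6 and 401.6 CPM in those of salm[340], and rose by 0.30 on the log2 scale (SE 0.0835, edgeR adjusted p = 0.0365), but not without WT replicate 1 (edgeR adjusted p = 0.566) or WT replicate 2 (edgeR adjusted p = 0.442).

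**Figure D2:**
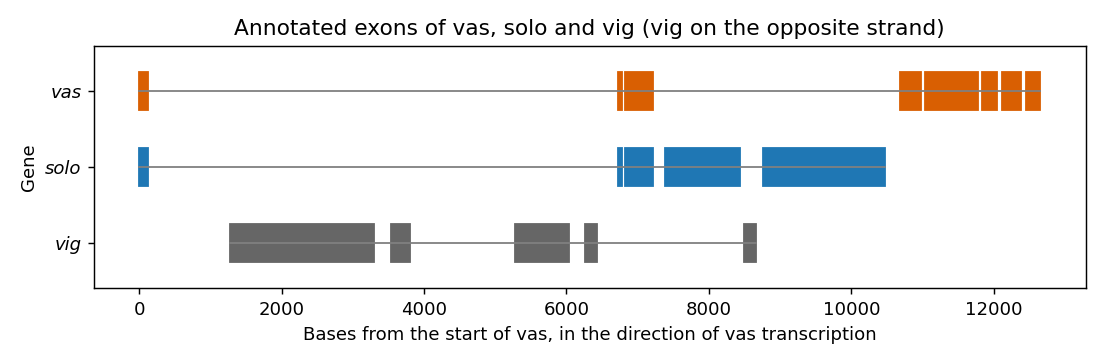
Annotated exons (boxes) of vas, solo and vig, in bases from the start of vas. The first 3 exons of vas and solo coincide, and the exons of vig fall between those of vas.

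By the likeness of centred log2 CPM over the 4 libraries (Euclidean distance, 5254 genes with at least 10 CPM on average), the genes nearest to vas were CG17230, lncRNA:CR44999 and kirre, at distances of 0.33, 0.352 and 0.382. These are likenesses over 4 libraries of 2 lines, and the 3 genes differed between the lines by 1.27, 1.37 and 1.504 on the log2 scale.

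Nanos and Polar granule component act in the pole cells themselves. The gene nos (3R:19157238-19160202, plus strand) encodes a translational repressor that works with Pumilio. It had 76 and 59 counts in the WT libraries against 32 and 33 in those of salm[340], or 2.24 and 1.96 CPM against 3.13 and 3.25 CPM. Both salm[340] libraries were higher, as in 28.4% of all genes tested. The difference of 0.60 did not pass (95% interval -0.26 to 1.46, edgeR adjusted p = 0.331). Of the exon bases of nos, 269 are shared with CG11779 and 104 with Nsun5, both on the opposite strand, and strand was not used in counting. These neighbours did not pass either (log2 fold changes -0.08 and 0.11, edgeR adjusted p = 0.849 and 0.593). In WT, CG11779 stood at 4.12 and Nsun5 at 18.7 CPM per kb of exon, above the 0.893 CPM per kb of nos. Their part in the nos counts was not tested.

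The gene pgc (2R:22330200-22332813, plus strand) encodes a small protein that holds down transcription by RNA polymerase II in pole cells. Its counts were 100 and 98 in the WT libraries against 51 and 10 in those of salm[340]. The WT libraries agreed closely at 2.95 and 3.25 CPM, whereas the salm[340] libraries lay on either side of them at 4.99 and 0.984 CPM. The exact 95% Poisson intervals of the salm[340] libraries, which cover counting error only, were 3.71 to 6.56 CPM and 0.472 to 1.81 CPM and did not overlap. Among all genes tested, 1.03% had a ratio of salm[340] replicate 1 to replicate 2 at least as high as the 5.07 of pgc, and 2.02% did among the 5484 tested genes under 10 CPM on average. The difference between the lines was -0.05 (95% interval -1.32 to 1.22, edgeR adjusted p = 0.964). Which salm[340] library is kept decided its sign: it was -1.66 without replicate 1 (edgeR adjusted p = 0.00495) and 0.67 without replicate 2 (edgeR adjusted p = 0.113). Of the exon length of pgc, 46.9% or 569 bases is shared with T3dh on the opposite strand. T3dh, with 110 and 91 counts in the WT libraries against 30 and 24 in those of salm[340], showed no such split (2.93 and 2.36 CPM in salm[340]). Its part in the pgc counts was not tested.

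The gene gcl (2R:8724258-8728999, plus strand) is the substrate adaptor of a ubiquitin ligase that lets pole cells form by removing the Torso receptor, and its RNA is not restricted to germ cells. It was the best measured of the 10, with 950 and 862 counts in the WT libraries against 250 and 258 in those of salm[340]. Scaled, these were 28.0 and 28.6 CPM in the WT libraries against 24.4 and 25.4 CPM in those of salm[340]. Both salm[340] libraries lay below both WT libraries, as in 30.7% of all genes tested. The difference of -0.18 did not pass, and its 95% interval of -0.45 to 0.08 was the narrowest of the 8 (edgeR adjusted p = 0.331). With library size alone it fell by 1.38 on the log2 scale (edgeR adjusted p = 9.7e-07), near the shift of the median gene.

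**Figure D3:**
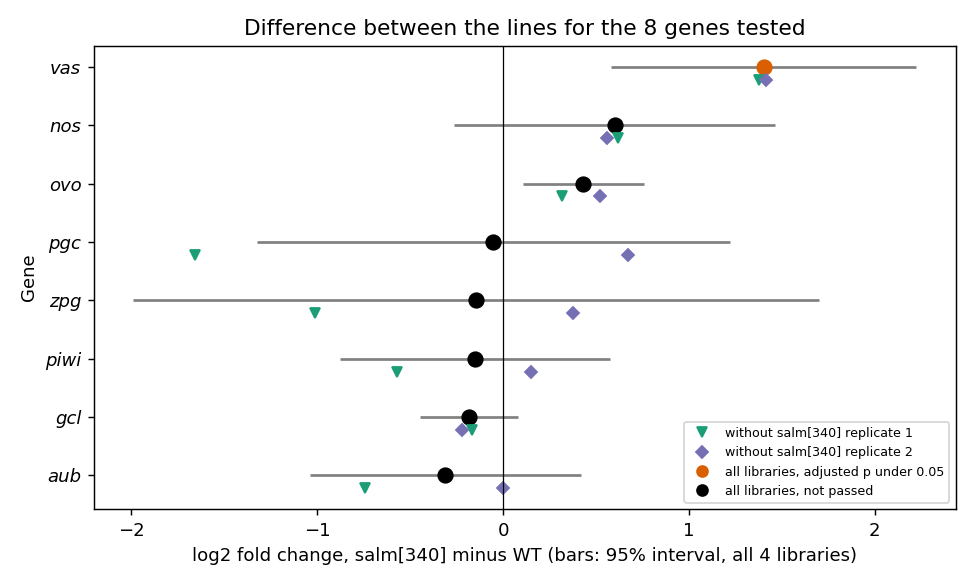
log2 fold change (salm[340] minus WT) of the 8 tested genes with its 95% interval from all 4 libraries, and the same value without salm[340] replicate 1 (triangles) or replicate 2 (diamonds). The interval of vas lies above 0, and pgc, zpg and piwi change sign with the salm[340] library left out.

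Of the 3 PIWI-clade Argonautes, aub and piwi were tested and neither passed. Piwi is the nuclear one and directs transcriptional silencing. Aubergine and Argonaute 3 are cytoplasmic and slice transposon transcripts in the ping-pong cycle that makes further piRNAs. The genes aub (2L:10997819-11001476, minus strand) and piwi (2L:10982205-10987420, minus strand) lie 10398 bases apart.

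For aub, counts of 273 and 160 in the WT libraries against 69 and 41 in those of salm[340] scaled to 8.05 and 5.30 CPM and to 6.75 and 4.03 CPM. The lines overlapped, and both pairs were spread. The difference was -0.31 (95% interval -1.04 to 0.42, edgeR adjusted p = 0.571). It passed as a fall without salm[340] replicate 1 (-0.74, edgeR adjusted p = 0.0339) and was -0.0026 without salm[340] replicate 2 (edgeR adjusted p = 0.996). The gene TTLL4A, on the opposite strand, shares 79 exon bases with aub. It had 987 counts in salm[340] replicate 1 and 242 in replicate 2, or 96.5 and 23.8 CPM, against 24.1 and 29.7 CPM in WT, and its part in the aub counts was not tested.

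For piwi, counts of 171 and 137 in the WT libraries against 55 and 33 in those of salm[340] scaled to 5.04 and 4.54 CPM and to 5.38 and 3.25 CPM. One salm[340] library was above both WT libraries and the other below them, with a difference of -0.15 (95% interval -0.88 to 0.57, edgeR adjusted p = 0.795). The neighbour SCAR shares 191 exon bases with piwi on the opposite strand and was at 36.2 and 35.6 CPM in the WT libraries against 31.2 and 42.7 CPM in those of salm[340]. Its part in the piwi counts was not tested.

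AGO3 (3L:23554593-23689640, plus strand) had 14 and 11 counts in the WT libraries against 4 and 1 in those of salm[340], and did not reach the filter on low counts. At 0.413 and 0.365 CPM in the WT libraries against 0.391 and 0.0984 CPM in those of salm[340], it was the lowest of the PIWI-clade genes, also per kb of exon (0.122 CPM per kb in WT, beside 2.21 for aub and 1.56 for piwi). Without the filter its difference was -0.69 with a 95% interval of -3.57 to 2.20, an interval that includes changes of several fold in either direction. Within its bounds lie 106 annotated features outside the gene table, and 1 of these shares 166 bases with its exons.

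Tejas, encoded by tej (2R:14300103-14302353, minus strand), is a Tudor-domain protein of the nuage, the perinuclear granule in which piRNAs are made. It had 1 and 7 counts in the WT libraries against 8 and 2 in those of salm[340], and was not tested either. Its exact 95% Poisson intervals, for counting error only, ran from 0.000746 to 0.478 CPM over the WT libraries and from 0.0238 to 1.54 CPM over the salm[340] libraries. Without the filter the difference was 1.84, with a 95% interval of -1.65 to 5.33.

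The 2 remaining genes act in germ cells once these are established. The gene zpg (3L:6604366-6606032, minus strand) encodes a gap junction protein, an innexin, that germ cells need to survive and differentiate. It had 17 and 21 counts in the WT libraries against 8 and 3 in those of salm[340], which scale to 0.501 and 0.696 CPM and to 0.782 and 0.295 CPM. The lines overlapped and the difference of -0.15 had a 95% interval of -1.99 to 1.70 (edgeR adjusted p = 0.927).

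The gene ovo (X:5048273-5070929, plus strand) encodes zinc finger transcription factors, a germline form and the somatic form Shavenbaby, which shapes denticles in the epidermis. The counts do not separate these forms. It had 516 and 475 counts in the WT libraries against 229 and 197 in those of salm[340], or 15.2 and 15.7 CPM against 22.4 and 19.4 CPM. Both salm[340] libraries were higher, as in 28.4% of all genes tested. The difference of 0.43 (95% interval 0.11 to 0.76) missed the threshold over all genes (edgeR adjusted p = 0.0727). It passed without salm[340] replicate 2 (0.52, edgeR adjusted p = 0.00298), and with library size alone it was -0.76 and passed as lower (edgeR adjusted p = 0.000986). Epidermis markers were summed beside it: the 9 genes of that list gave 598.5 and 599.7 CPM in the WT libraries against 799.6 and 856.0 CPM in those of salm[340], with 2 higher and 2 lower and 0 of them at 0 counts in all libraries. The 2 that passed as higher carried the rise of the sum, cora from 210.9 and 211.1 to 377.4 and 391.7 CPM and pyd from 137.4 and 135.2 to 215.5 and 242.2 CPM, while Nrx-IV and crb passed as lower. The part of epidermal RNA in the ovo counts was not tested.

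Within the salm[340] pair, 8 of the 10 genes were higher in replicate 1 than in replicate 2, all but nos and gcl, whose ratios were both 0.963. Of all genes tested, 5231 of 10738 were. The ratio was 5.07 for pgc, 2.65 for zpg, 1.67 for aub, 1.66 for piwi, 1.15 for ovo and 1.03 for vas among the tested genes. In the WT pair 4 of the 10 were higher in replicate 1, and the ratios farthest from even among the 8 tested genes were 1.52 for aub and 0.572 for vas. The untested tej, with 1 and 7 counts, had a ratio of 0.127.

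The other genes of the pathway were taken in 4 lists, and over all 4 of them 12 of 69 tested genes passed, 17.4%, near the 17.2% of all genes tested. Of 22 further genes of cytoplasmic piRNA biogenesis, 19 were tested, 1 was higher and 1 lower (10.5%, against 17.2% of all genes), and the median log2 fold change was -0.04. The polar granule and nuage scaffold gene tudor (tud) rose by 0.56 on the log2 scale (67.8 ± 4.82 to 99.9 ± 11.6 CPM, SE 0.103, edgeR adjusted p = 0.00501; SD, n = 2 each). The gene daed, for a partner of Gasz on the mitochondrial surface where piRNA precursors are processed, fell from 5.43 ± 0.411 to 2.599 ± 0.196 CPM (-1.06, SE 0.311, edgeR adjusted p = 0.0434; SD, n = 2 each). That call was not made by DESeq2 (adjusted p = 0.123). The helicase gene armi was at 20 and 18 counts in the WT libraries against 1 and 5 in those of salm[340], and the endonuclease gene zuc at 62 and 47 against 4 and 11. For both, the salm[340] libraries lay below both WT libraries in CPM, as in 30.7% of all genes tested. Neither passed (-0.996 and -1.196, edgeR adjusted p = 0.523 and 0.236). Among the 19 tested genes of this list, 4 lay below in this way and 7 lay above, as did 28.4% of all genes tested.

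Of 24 genes of nuclear piRNA clusters and silencing, 21 were tested, 1 was higher and 1 lower (9.52%, against 17.2% of all genes), with a median of -0.04. The general factor gene Trf2, used at piRNA clusters and at many other promoters, rose by 0.35 (152.7 ± 5.07 to 195.2 ± 25.7 CPM, edgeR adjusted p = 0.0308; SD, n = 2 each). The SUMO-conjugating enzyme gene lwr fell by 0.32 on the log2 scale (86.4 ± 0.504 to 69.4 ± 5.16 CPM, edgeR adjusted p = 0.0381; SD, n = 2 each), a call that DESeq2 did not make (adjusted p = 0.0629). The heterochromatin-like protein gene rhino (rhi), which marks dual-strand piRNA clusters, had 18 and 8 counts in the WT libraries against 10 and 14 in those of salm[340] and did not pass (1.54, SE 0.759, edgeR adjusted p = 0.202). Per kb of exon rhi stood at 0.253 CPM in WT, while the SUMO gene smt3, which has many other uses, stood at 278.5 CPM per kb.

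Of 20 genes of germ plasm assembly and maternal RNA control, 17 were tested, 4 were higher and 0 lower, with a median of 0.15. In edgeR 4 of the 17 is 23.5%, against 17.2% of all genes. These 4 have wide somatic use: pum, the Nanos partner Pumilio (0.94, 59.4 ± 1.85 to 114.1 ± 8.64 CPM, edgeR adjusted p = 0.000109), the RNA transport gene stau (0.53, edgeR adjusted p = 0.006), the Hsp90 chaperone gene Hsp83 (0.35, edgeR adjusted p = 0.0049) and the hnRNP gene Hrb27C (0.26, edgeR adjusted p = 0.0416; SD, n = 2 each). The gene oskar (osk), the organiser of germ plasm, had 0 counts in all 4 libraries. A count of 0 allows up to 3 counts, or 0.0884 and 0.0994 CPM in the WT libraries and 0.293 and 0.295 CPM in the salm[340] libraries.

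Of 14 genes of germ cell migration and germline maintenance, 12 were tested, 3 were higher and 1 lower (33.3%, against 17.2% of all genes), with a median of 0.28. The isoprenoid synthesis gene Fpps rose by 0.66 (62.3 ± 0.955 to 98.4 ± 8.499 CPM, edgeR adjusted p = 0.00108), as did the lipid phosphatase gene wun, which repels migrating germ cells, by 0.66 (15.2 ± 1.42 to 24.1 ± 6.77 CPM, edgeR adjusted p = 0.0393). The gene chinmo, for a BTB zinc finger factor of the testis stem cells, rose by 0.41 (edgeR adjusted p = 0.0342), and Tre1, the G protein-coupled receptor that starts germ cell migration, fell by 0.46 on the log2 scale (49.4 ± 0.192 to 35.9 ± 6.49 CPM, edgeR adjusted p = 0.0331; SD, n = 2 each). DESeq2 did not call wun (adjusted p = 0.058) or chinmo (adjusted p = 0.126), and wun was at 0.33 without salm[340] replicate 2 (edgeR adjusted p = 0.09). The mitochondrial share of the counts was higher in the salm[340] libraries. With mitochondrial genes left out of the fit, 12 of 70 pathway genes passed, 9 higher and 3 lower. There Fpps, wun, chinmo and Tre1 were at 0.66, 0.67, 0.41 and -0.46. The part of the mitochondrial share in these calls was not otherwise tested. Without WT replicate 1 the median log2 fold change of the 69 pathway genes tested was 0.08. Without WT replicate 2 it was 0.05 over 72 genes. The calls made without each library are given at the end. With library size alone 0 of the 69 pathway genes were higher and 53 lower, where 8361 of all genes passed, 84 higher and 8277 lower. The 9 pathway genes called higher all had a negative log2 fold change there.

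**Figure D4:**
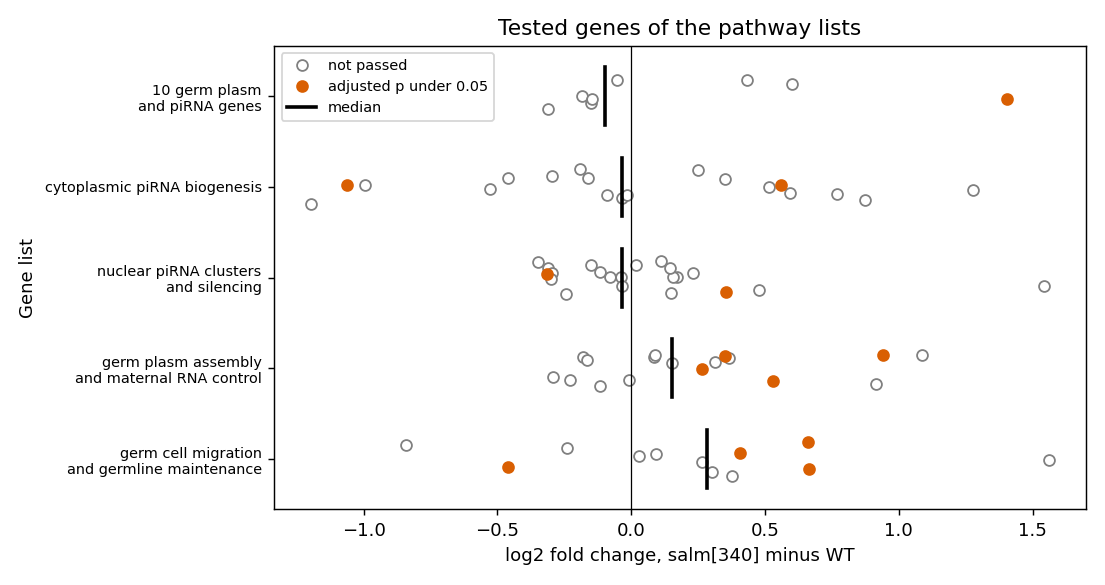
log2 fold change (salm[340] minus WT) of the tested genes among the 10 and in each pathway list, spread vertically for legibility. Filled points passed at an edgeR adjusted p under 0.05, and bars are medians, which lie between -0.10 and 0.28.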

How the data were processed

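The counts used are those of the series' own gene table, and for all 17518 genes they equal the counts in the 4 per-library files. Reads went through cutadapt 2.4 and STAR 2.5.4b with build BDGP6, per the submitters' processing notes. The authors' deposited values are unnormalized counts from featureCounts 2.0.1 on Ensembl release 104, per the file headers. The same headers show that a fragment mapping to several places, or touching several features by at least 10 bases, was added to each, with no strand setting. Overlapping and antisense genes can therefore share fragments.

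The edgeR quasi-likelihood test (version 4.0.16, R 4.3.3) was run on all 4 libraries, using TMM, filterByExpr with a minimum count of 10, glmQLFit and glmQLFTest, without a replicate block. Benjamini-Hochberg adjustment covered the 10738 genes tested, and a gene passed under 0.05. The TMM factors of the WT libraries were 1.55 and 1.47, and those of salm[340] 0.675 and 0.649. Intervals are at 95%. The standard error (SE) was taken as the size of the log2 fold change over the square root of F. Exon overlaps come from the per-library files. Paired libraries differed beyond counting noise, with a chi-square per degree of freedom over nuclear genes of 4.15 for WT and 7.36 for salm[340], and none were merged. The 10 genes and all lists were chosen with earlier results of these data known. Of 80 pathway entries, 79 matched by symbol and Boot by a synonym. Named were the 10 genes, genes overlapping them, up to 4 called genes of each pathway list with the smallest adjusted p, any piRNA gene called at a 2-fold change, and the 3 genes nearest to vas. The genes armi, zuc, rhi, smt3, osk, Mef2, Mhc, Act57B, srp, Cad87A, cora, pyd, Nrx-IV and crb were named after their values were seen. So were drpr, Pxn, Col4a1, PPO1 and PPO2. Alternatives were DESeq2 1.42.0, its size factors within edgeR, library size alone, no filter, mitochondrial genes left out, a replicate block and leaving out each library.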

Additional observations from a re-analysis of the deposited data

Results flagged for a closer look

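Transposon features, which lie outside the gene table and entered no comparison above, gave 15.5 and 18.2 counts per 100 nuclear gene counts in salm[340] replicates 1 and 2, above the 8.33 and 9.09 of the WT libraries. Features were recognised by matching IDs to the Ensembl release 115 annotation. Fragments that match several insertions were counted repeatedly, so these are not shares of fragments. Their relation to the piRNA pathway genes was not tested.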

How the results depend on the processing

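The cause was not tested for any of these changes. With library size alone, 8361 genes passed in edgeR (1847 with TMM), 4 of the 8 germ plasm and piRNA genes (all lower), and 53 pathway genes: 12 of cytoplasmic biogenesis, 18 of nuclear silencing, 14 of germ plasm assembly and 9 of germ cell migration. There nos (-0.59), ovo (-0.76), tud (-0.63), Trf2 (-0.84), pum (-0.25), Hsp83 (-0.84), stau (-0.66), Hrb27C (-0.93), Fpps (-0.53), chinmo (-0.79), wun (-0.53) and vig (-0.89) changed sign. DESeq2 called 1 gene each of cytoplasmic biogenesis and nuclear silencing and 2 of germ cell migration. Leaving out each library in turn gave 14 to 3803 genes, 0 to 3 of the 10 genes and 0 to 24 pathway genes (0 to 6, 0 to 7, 0 to 9 and 0 to 6 in the 4 lists), with the fewest without WT replicate 1 or WT replicate 2, where the lone WT library was assumed to vary like the salm[340] pair. DESeq2 on all libraries called 1 of the 10 and 8 of 79 pathway genes, beside 1350 of the 14972 genes it fitted. Over the 4 fits that left out a library the sign changed for pgc (-1.66 to 0.67), aub (-0.74 to 0.018), piwi (-0.57 to 0.15) and zpg (-1.01 to 0.38). With the replicate number as a block 2256 genes passed, 1 of the 10, vas (1.44), and 16 pathway genes (11 higher, 5 lower), 1 more in each list. Same-numbered libraries did not deviate together (correlation 0.0417 across genes) and no label pairs them. Counts of AGO3, tej and zpg were at most 21 in each library of either line, which limits their precision.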
